A study of Mus musculus with 24 samples.

Results

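Genes of bile acid recovery and bile acid sensing in the ileum were described across 6 groups of mice that differed in colonization and in the β2→1-fructan they received. The 8 genes, out of 18821 measured, were Fgf15, Fabp6, Slc10a2, Slc51a, Slc51b, Nr1h4, Nr0b2 and Gpbar1. They were found by their annotated gene symbol, and each was read by exactly 1 probe set of the array, so no choice between probe sets was needed. Total RNA from whole pieces of terminal ileum was labelled and hybridised to 24 Affymetrix Mouse Gene 1.1 ST arrays, 1 per mouse, with 4 mice in each group. The germ-free groups received short-chain β2→1-fructan, long-chain β2→1-fructan or water, and the conventional groups received the same 3 treatments. All mice were C57BL/6OlaHsd males of 8 weeks on a purified diet with 10% fat, which they had eaten for at least 2 weeks, and the fructan dose was 10 mg a day by gavage for 5 days. Germ-free mice came from a university breeding colony and conventional, specified pathogen free mice from a commercial supplier, so colonization and source cannot be told apart. For the germ-free mice the short-chain preparation was passed through a 0.2 micron filter and the long-chain preparation was irradiated with 25 kGy, which broke down part of it while chains of up to 30 units were still present. Time of day and feeding state at sampling are not given in the sources used here.

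Bile acids made in the liver reach the gut lumen after a meal and are recovered in the terminal ileum: a sodium-dependent carrier takes them up at the brush border, a cytosolic protein binds them inside the enterocyte, and a transporter of paired subunits releases them towards the portal blood. Inside the enterocyte they activate the nuclear receptor FXR, which switches on Fgf15, a hormone that travels to the liver and represses bile acid synthesis there. Gut bacteria deconjugate bile acids and turn primary into secondary bile acids.

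Levels are log2 values after robust multi-array averaging (RMA). A gene was called changed, by the study's own rule, at an unadjusted p under 0.01 and a change over 1.3-fold, and p-values adjusted over all 18821 genes (limma, Benjamini-Hochberg) are given beside it. Array medians lay between 4.92 and 4.98, and arrays of 1 group correlated with each other at r between 0.979 and 0.990 over all probe sets. The label of the tissue was checked against 10 other ileal enterocyte markers: their mean per mouse lay between 9.59 and 10.43 in the 12 germ-free mice and between 9.62 and 9.82 in the 12 conventional mice, and none of the 10 was called in the mean of the 3 treatments, although 7 had an adjusted p under 0.05 (4 higher and 3 lower in germ-free mice). Of the single treatments, water and short-chain fructan each had 1 ileal marker called higher in germ-free mice. Markers of other cells also moved with colonization, where 2.99% of all genes were called higher and 5.22% lower in the mean of the 3 treatments. Of 14 jejunal enterocyte markers 7 were called higher and 2 lower in germ-free mice, with per-mouse means of 7.51 to 8.61 in germ-free mice and 7.29 to 7.77 in conventional mice. All 6 adipocyte markers were called higher (6.39 to 8.34 in germ-free and 5.44 to 6.82 in conventional mice), 5 of 6 T cell markers lower (4.38 to 4.81 and 5.64 to 6.13) and 5 of 7 smooth muscle markers lower (8.72 to 9.60 and 9.65 to 9.92). Likewise 4 of 6 Paneth cell markers (10.003 to 10.48 in germ-free and 10.74 to 11.04 in conventional mice), 4 of 5 plasma cell markers (5.55 to 6.402 and 6.90 to 7.41) and 4 of 10 macrophage and dendritic cell markers (6.47 to 6.77 and 6.93 to 7.12) were called lower, while 10 markers of enterocytes of any segment gave no call (11.19 to 11.34 and 11.15 to 11.30). The part of these shifts in the results below was not tested, and in whole tissue fewer cells of a type and less RNA per cell cannot be told apart.

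Fgf15, the hormone of the loop, was the member that moved most. Its gene lies at chr7:144896532-144900953 (GRCm38.p6). In germ-free mice its level was 5.51, 5.43, 3.001 and 4.51 after short-chain fructan, 6.29, 4.54, 5.56 and 4.89 after long-chain fructan, and 8.98, 5.47, 7.86 and 6.93 on water. In conventional mice it was 9.83, 9.80, 9.86 and 8.73 after short-chain fructan, 7.78, 9.70, 9.32 and 9.45 after long-chain fructan, and 9.75, 8.89, 8.86 and 9.80 on water. All 8 germ-free mice given a fructan lay below every conventional mouse, and of the 4 germ-free mice on water, replicate 1 lay among the conventional mice on water and the other three below all of them.

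**Figure D1:**
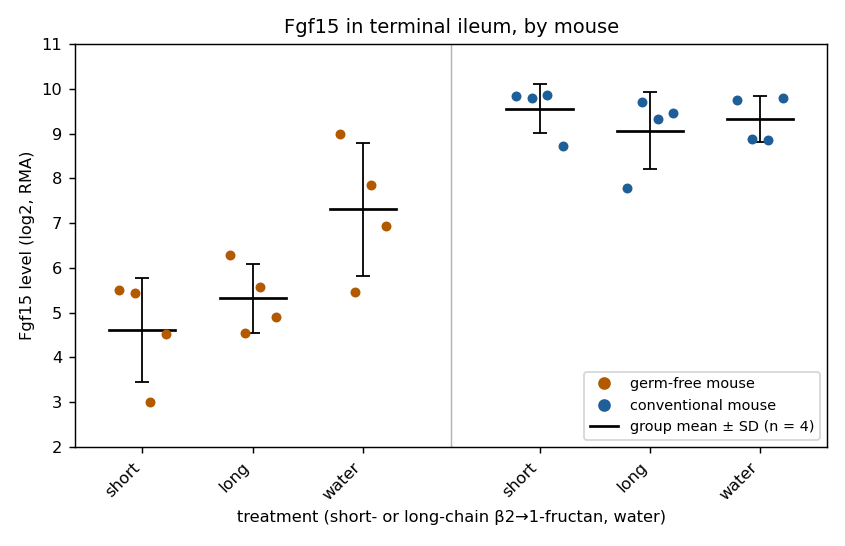
Fgf15 level of each mouse (points, log2 after RMA, vertical axis) in the 3 germ-free groups on the left and the 3 conventional groups on the right, with group means and SD (bars, n = 4). The germ-free fructan groups sit lowest (means 4.61 and 5.32), germ-free mice on water spread from 5.47 to 8.98, and the conventional groups lie close together (means 9.06 to 9.56).

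Fgf15 was lower in germ-free than in conventional mice within each treatment. After short-chain fructan it averaged 4.61 ± 1.17 in germ-free and 9.56 ± 0.55 in conventional mice (SD, n = 4 each), a log2 difference of -4.94 (SE 0.56), 30.7-fold lower with a 95% interval of 13.8 to 68.4 (limma, adjusted p = 5.87e-07). After long-chain fructan it averaged 5.32 ± 0.77 and 9.06 ± 0.87, a log2 difference of -3.74 (SE 0.56), 13.4-fold lower with an interval of 6.02 to 29.8 (adjusted p = 3.12e-05). Of the germ-free mice given a fructan, 2 of 4 on each lay under the lowest array median of 4.92, and whether Fgf15 was above background there was not tested. The germ-free and conventional groups did not overlap in either treatment (exact permutation p = 0.029, two-sided, the smallest that 4 against 4 mice allow). On water it averaged 7.31 ± 1.49 in germ-free and 9.32 ± 0.52 in conventional mice, a log2 difference of -2.01 (SE 0.56), 4.04-fold lower with an interval of 1.82 to 8.98 (adjusted p = 0.015), the groups overlapped, and the exact permutation test gave p = 0.086. Without replicate 2 of the germ-free mice on water, the lowest of that group, this difference shrank to -1.40 and was no longer called (adjusted p = 0.091 by limma). Over the 3 treatments together the log2 difference was -3.57 (SE 0.32, 11.8-fold lower, interval 7.47 to 18.8, adjusted p = 1.83e-09), and an exact permutation of mice within each treatment gave p = 1.7e-05, two-sided.

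Among all 18821 genes, only 1 fell further than Fgf15 between germ-free and conventional mice after short-chain fructan, and likewise only 1 after long-chain fructan, where its log2 change ranked 2 from the bottom. On water it ranked 28. Fgf15 varied more within groups than 99.9% of genes, which favours an extreme rank by log2 change. By the smallest limma p, Fgf15 ranked 80 after short-chain fructan, 253 after long-chain fructan and 1630 on water. Fgf15 was 1 of the 792 genes, 4.21% of all, that were called in the same direction in all 3 of these comparisons. They share no mice, but they share 1 fit and its estimate of each gene's spread.

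Within germ-free mice, Fgf15 was lower after either fructan than on water. The log2 difference was -2.70 for short-chain fructan (SE 0.56, 6.48-fold lower, interval 2.91 to 14.4, adjusted p = 0.34 by limma) and -1.99 for long-chain fructan (SE 0.56, 3.97-fold lower, interval 1.78 to 8.82, adjusted p = 0.35). Both passed the study's rule and neither passed the adjusted one. In both comparisons Fgf15 had the lowest log2 change of all genes tested, and by the smallest limma p it ranked 3 with short-chain and 79 with long-chain fructan. Its spread within groups was wider than that of 99.9% of genes, so an extreme rank by log2 change alone says little. For long-chain over short-chain fructan, not called in either state, it ranked 15 from the bottom in conventional mice and 18815 of 18821 in germ-free mice. Replicates overlapped in both, with 3 of 4 short-chain mice and 2 of 4 long-chain mice below every mouse on water (exact permutation p = 0.057 and p = 0.086, two-sided). These comparisons share the 4 mice on water, whose Fgf15 levels ranged over 3.51 log2 units. Without replicate 1 of those mice, the highest, the long-chain difference was -1.43 and no longer called, and the short-chain difference was -2.14 and still called. Without replicate 2, the lowest, the short-chain difference was -3.31 with an adjusted p of 0.023.

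Replicate 1 of the germ-free mice on water, with the highest Fgf15 of any germ-free mouse, also stood apart in its marker levels. Its 10 other ileal markers averaged 10.43, against 9.83, 9.75 and 9.85 in replicates 2 to 4, and its 14 jejunal markers averaged 8.61, against 8.01, 7.88 and 8.10. Whether this mouse's tissue piece bears on its Fgf15 level was not tested. Between germ-free mice on short-chain fructan and on water, the median log2 change was -0.04 over the 10 ileal markers, 0.06 over the jejunal ones and -0.03 over the enterocyte markers of any segment, with no gene of the 3 lists called. Between germ-free mice on long-chain fructan and on water these medians were -0.19, -0.27 and -0.10, and 1 ileal marker was called lower. Among the other cell type lists, 4 of 6 B cell markers were called higher after long-chain fructan (median log2 change 0.48, mean per mouse 3.85 to 4.75 against 3.70 to 3.88 on water) and 1 of 5 plasma cell markers lower. The median over 6 adipocyte markers was 0.68 higher after short-chain fructan, with none called. The part of these shifts in the Fgf15 change was not tested.

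In conventional mice no change of Fgf15 with fructan was found. The log2 difference from water was 0.23 for short-chain fructan (95% interval -0.92 to 1.38, adjusted p = 1.00 by limma) and -0.26 for long-chain fructan (interval -1.41 to 0.89, adjusted p = 0.98). The intervals still allow changes of 2.61-fold or more in one direction, so a modest change could not be seen with this spread. The response to short-chain fructan differed between germ-free and conventional mice by -2.93 on the log2 scale (SE 0.79, interval -4.56 to -1.30, adjusted p = 0.90), which the study's rule calls, and the response to long-chain fructan by -1.73 (SE 0.79, interval -3.36 to -0.10, adjusted p = 1.00), which it does not. Long-chain and short-chain fructan did not separate: long minus short was 0.71 in germ-free mice (interval -0.44 to 1.86, adjusted p = 0.61) and -0.49 in conventional mice (interval -1.64 to 0.66, adjusted p = 1.00). Those preparations differ in chain length and, in germ-free mice, also in how they were sterilised.

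Ordered by mean Fgf15 level, the groups ran from germ-free short-chain, germ-free long-chain and germ-free water up to conventional long-chain, conventional water and conventional short-chain. The first pair of neighbours and the 3 conventional groups did not differ beyond the spread between mice. Within groups Fgf15 had a residual SD of 0.96, higher than that of 99.9% of the genes measured, and the spread in germ-free mice on water (SD 1.49) was the widest of the 6 groups.

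Counted over the 8 genes, calls by the study's rule were as follows. On water 1 of 8 was called, where 8.73% of all genes were. After short-chain fructan 2 of 8 were called (background 8.76%), and after long-chain fructan 1 of 8 (background 9.69%). Germ-free and conventional mice did not overlap for 1, 2 and 4 of the 8 genes on water, short-chain and long-chain fructan, where 17.9, 19.9 and 15.9% of all genes did not. In the mean of the 3 treatments 2 of 8 were called lower and none higher, against 8.20% of all genes called in either direction, and 5 of 8 had an adjusted p under 0.05 (4 lower and 1 higher), against 34.0% of all genes. With 8 genes, 1 call more or less moves these shares widely, and no test was made of them. The median log2 change of the 8 genes in that mean was -0.09, beside 0.03 over all genes.

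Fabp6, which binds bile acids inside ileal enterocytes (chr11:43596040-43601562), is like Fgf15 a known target of FXR, but no change between germ-free and conventional mice was found. The 24 mice lay between 12.38 and 12.80, near the top of the range of the arrays, whose highest value was 13.36. Over the 3 treatments Fabp6 averaged 12.55 ± 0.11 in germ-free and 12.53 ± 0.07 in conventional mice (SD, n = 12 each), a log2 difference of 0.02 with a 95% interval of -0.05 to 0.09 (adjusted p = 0.67 by limma). For that mean, the interval excludes a change of over 1.07-fold on this scale. By treatment the log2 difference was 0.12 on water, 0.05 after short-chain and -0.10 after long-chain fructan (adjusted p = 0.22, 0.68 and 0.30 by limma). The intervals of these reached 1.18-fold, 1.12-fold and 1.16-fold, in the same order. Within germ-free mice the lowest p of Fabp6 was that of long-chain fructan over water (log2 difference -0.16, 1.12-fold lower, adjusted p = 0.41), a change too small for the study's rule.

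**Figure D2:**
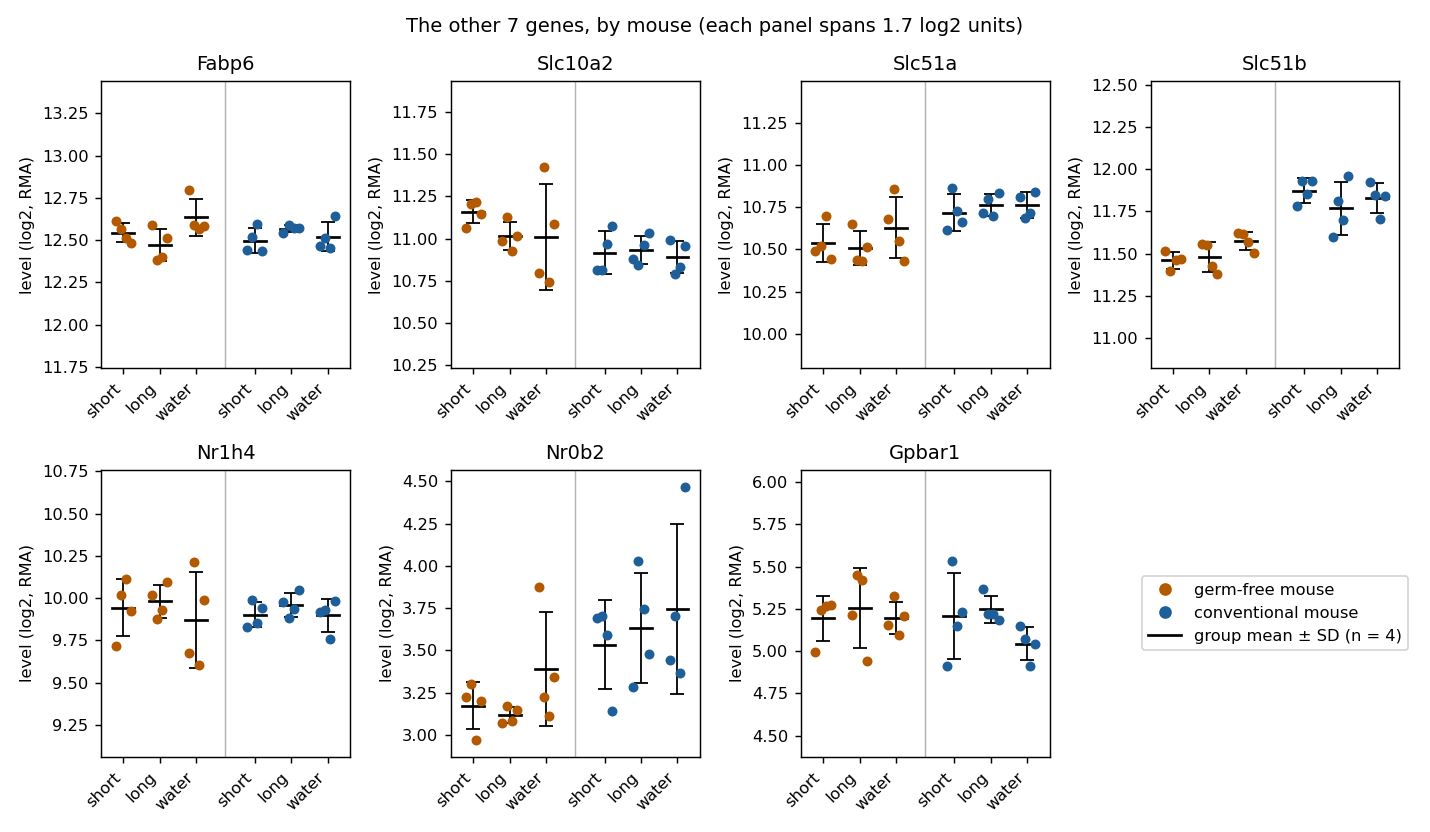
Levels of the other 7 genes in each mouse (points, log2 after RMA; every panel spans 1.7 log2 units), germ-free groups left and conventional groups right in each panel, with means and SD (bars, n = 4). Of these 7 genes, only Slc51b has germ-free and conventional mice apart in all 3 treatments, a pattern not counted over all genes. Nr0b2 lies under 4.5 in every mouse.

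FXR binds DNA with its partner RXR at inverted repeats of the half-site AGGTCA with 1 base between them, AGGTCANTGACCT, and the promoter of Fabp6 is shown because it is the one of the 7 searched that holds matches to this motif. Promoters, from 250 bases before to 50 bases after an annotated start of the gene, were taken from RefSeq (GRCm38.p6) for 7 of the 8 genes, and the promoter of Fgf15 was not analysed here. That of Nr1h4 (chr10:89506609-89506908, minus strand) belongs to a start inside the gene's full span and not to its outermost one. Up to 2 mismatches were allowed, and since the motif reads alike on both strands each match counts once. The Fabp6 promoter (chr11:43601513-43601812, minus strand) is printed 5′ to 3′ on the gene's strand, with the 2 matches in capitals.
Fabp6: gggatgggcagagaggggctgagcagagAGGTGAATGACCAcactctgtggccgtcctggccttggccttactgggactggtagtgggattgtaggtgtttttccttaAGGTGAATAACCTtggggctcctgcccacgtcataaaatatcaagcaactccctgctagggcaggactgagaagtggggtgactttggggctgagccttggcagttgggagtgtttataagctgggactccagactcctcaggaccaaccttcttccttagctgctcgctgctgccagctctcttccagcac

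The first match, AGGTGAATGACCA, lies at positions -222 to -210 from the start and the second, AGGTGAATAACCT, at -142 to -130, each with 2 mismatches. Matches of this kind were found in 374 of 32851 promoters of the same length (1.14%). The other 6 promoters held none. The half-site AGGTCA alone, read on both strands, was found in the promoters of Slc51a, Slc51b and Nr1h4, once each, and in 16.3% of all promoters. A match is a stretch of letters, and no binding was measured.

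Slc10a2, the sodium-dependent carrier that takes bile acids up at the brush border (chr8:5083219-5105287), differed little between groups. Germ-free mice ranged from 10.74 to 11.42 with a median of 11.08, and conventional mice from 10.79 to 11.08 with a median of 10.92, so the groups overlapped. The mean of the 3 treatments was higher in germ-free mice by 0.15 on the log2 scale (SE 0.06, 1.11-fold, adjusted p = 0.041 by limma), which the study's rule does not call, and the adjusted p passed 0.05 in 11 of 24 fits that left out 1 mouse. The largest difference was after short-chain fructan, at 11.16 ± 0.07 in germ-free and 10.92 ± 0.13 in conventional mice (SD, n = 4 each; adjusted p = 0.095).

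Slc51a and Slc51b encode the paired subunits, OSTα and OSTβ, of the transporter that releases bile acids across the basolateral membrane. Both are known FXR targets, and both were lower in germ-free mice, by less than Fgf15. Slc51b (chr9:65412753-65422773) stood at 11.52, 11.40, 11.46 and 11.47 in germ-free mice after short-chain fructan, 11.56, 11.55, 11.43 and 11.38 after long-chain fructan, and 11.62, 11.61, 11.57 and 11.50 on water. In conventional mice it stood at 11.78, 11.93, 11.85 and 11.93 after short-chain fructan, 11.60, 11.81, 11.70 and 11.96 after long-chain fructan, and 11.92, 11.85, 11.71 and 11.84 on water. Within each treatment every germ-free mouse lay below every conventional mouse.

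The log2 difference of Slc51b was -0.41 after short-chain fructan (SE 0.06, 1.33-fold lower, adjusted p = 5.60e-05 by limma), which was called. It was -0.29 after long-chain fructan (1.22-fold, adjusted p = 0.0025) and -0.25 on water (1.19-fold, adjusted p = 0.0084), both under the fold that the study's rule asks for. The mean of the 3 was -0.32 (interval -0.40 to -0.24, 1.25-fold lower, adjusted p = 1.52e-07), with an exact permutation p of 5.8e-06 within treatments, the smallest that this design allows. Its adjusted p stayed under 0.05 in every fit that left out 1 mouse. No change of Slc51b with fructan was found against water, with log2 differences of -0.12 and -0.10 in germ-free mice (adjusted p = 0.91 and 0.69) and 0.04 and -0.06 in conventional mice (adjusted p = 0.99 and 0.95), short-chain first.

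Slc51a (chr16:32475578-32487879) averaged 10.56 ± 0.13 in germ-free and 10.75 ± 0.08 in conventional mice over the 3 treatments (SD, n = 12 each). The log2 difference was -0.19 (SE 0.04, 1.14-fold lower, adjusted p = 0.0013 by limma, exact permutation p = 8e-04 within treatments), under the fold of the study's rule. By treatment it was -0.18 after short-chain fructan (adjusted p = 0.12), -0.25 after long-chain fructan (adjusted p = 0.023) and -0.13 on water (adjusted p = 0.28), and the mice did not overlap after long-chain fructan. That adjusted p passed 0.05 in 4 of 8 fits that left out 1 mouse of the 2 groups, and the highest was 0.071, without replicate 3 of the germ-free long-chain mice. The promoters of both subunits are printed because the 2 genes were both lower in germ-free mice in the mean of the 3 treatments. Each lies on the minus strand, Slc51a at chr16:32487830-32488129 and Slc51b at chr9:65422724-65423023, and capitals mark the half-site AGGTCA or its reverse complement TGACCT.
Slc51a: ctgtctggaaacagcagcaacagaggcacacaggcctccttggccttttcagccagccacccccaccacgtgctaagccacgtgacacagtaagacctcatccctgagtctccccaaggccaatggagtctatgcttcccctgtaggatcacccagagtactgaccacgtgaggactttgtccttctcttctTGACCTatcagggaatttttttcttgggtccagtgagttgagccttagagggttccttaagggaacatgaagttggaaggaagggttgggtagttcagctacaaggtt
Slc51b: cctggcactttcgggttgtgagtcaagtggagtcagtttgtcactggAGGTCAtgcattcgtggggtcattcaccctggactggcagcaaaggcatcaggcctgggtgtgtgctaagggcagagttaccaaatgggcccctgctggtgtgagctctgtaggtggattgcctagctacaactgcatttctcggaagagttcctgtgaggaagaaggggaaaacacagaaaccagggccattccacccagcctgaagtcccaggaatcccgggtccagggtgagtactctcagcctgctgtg

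The half-site stood at positions -58 to -53 in Slc51a, on the opposite strand, and at -203 to -198 in Slc51b. Neither promoter held the inverted repeat within 2 mismatches.

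**Figure D3:**
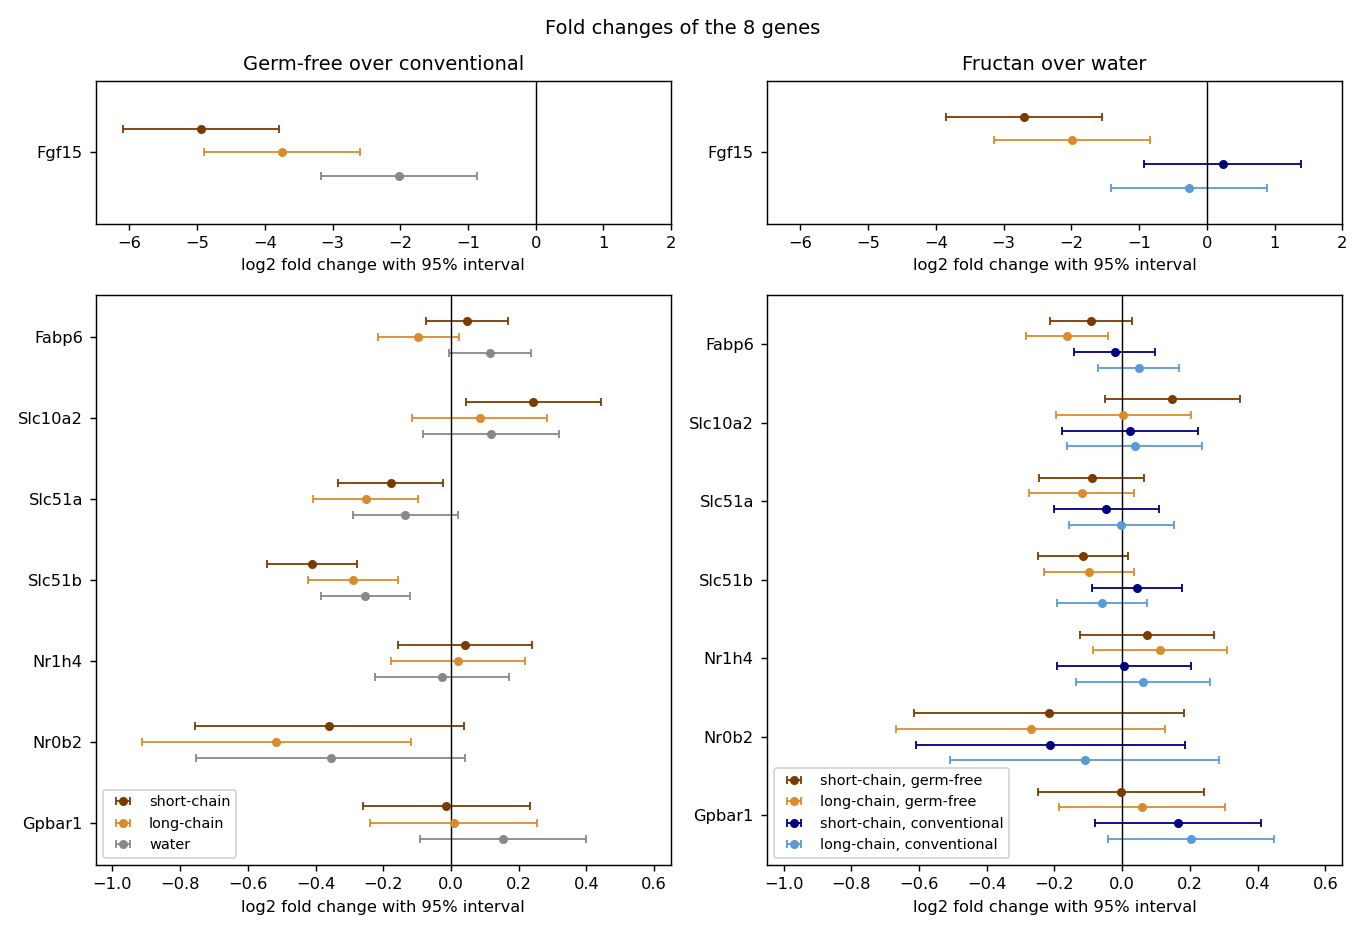
Log2 fold changes of the 8 genes with 95% intervals (limma, horizontal axes; the Fgf15 panels on top have a wider axis), germ-free over conventional mice on the left and fructan over water on the right. Fgf15 lies below 0 in all 3 colonization comparisons and in both germ-free fructan comparisons. The latter had adjusted p of 0.34 and 0.35 (limma), and mice overlapped in them and in the water colonization comparison. Slc51b lies below 0 in all 3 colonization comparisons, and the intervals of Nr1h4 cross 0 in every comparison drawn.

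The receptors themselves moved little. Nr1h4, which encodes FXR (chr10:89454234-89533645), ranged from 9.61 to 10.21 in germ-free mice, with a median of 9.96, and from 9.76 to 10.05 in conventional mice, with a median of 9.93. The germ-free range enclosed the conventional one. The mean difference was 0.01 on the log2 scale with a 95% interval of -0.10 to 0.13 (adjusted p = 0.90 by limma), which excludes a change of over 1.09-fold. No comparison of the 12 called it. Gpbar1 encodes TGR5, the bile acid receptor of the cell surface (chr1:74278600-74279589). It ranged from 4.94 to 5.45 in germ-free and from 4.91 to 5.54 in conventional mice, close to the array median, and no comparison called it. Whether Gpbar1 was above background was not tested. In conventional mice, Gpbar1 was 5.37, 5.22, 5.22 and 5.18 after long-chain fructan and 5.15, 5.07, 4.91 and 5.04 on water. These 4 and 4 mice did not overlap, as for 4.21% of all genes, while limma gave a log2 difference of 0.20 with an adjusted p of 0.89.

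Nr0b2 encodes SHP, a corepressor that FXR induces (chr4:133553376-133556686). Its probe set was dim, with every mouse between 2.97 and 4.47 and so under the median of its array. In germ-free mice the level was 3.22, 3.30, 2.97 and 3.20 after short-chain fructan, 3.07, 3.17, 3.08 and 3.15 after long-chain fructan, and 3.87, 3.23, 3.11 and 3.34 on water. In conventional mice it was 3.69, 3.70, 3.59 and 3.14 after short-chain fructan, 3.28, 4.03, 3.75 and 3.48 after long-chain fructan, and 3.44, 3.70, 3.37 and 4.47 on water. Only the long-chain groups did not overlap.

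Over the 3 treatments Nr0b2 was lower in germ-free mice by 0.41 on the log2 scale (log2 difference -0.41, SE 0.11, 1.33-fold, adjusted p = 0.0051 by limma, exact permutation p = 0.0022 within treatments), and it was called. The call was lost at a log2 difference of -0.37 without replicate 2 of the conventional long-chain mice, at -0.33 without replicate 4 of the conventional mice on water, and at -0.38 with array weights, each time because the change fell under 1.3-fold. Within single treatments the differences were -0.36 after short-chain fructan, -0.52 after long-chain fructan and -0.36 on water, with adjusted p of 0.24, 0.071 and 0.25.

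Against water, the fructans moved no member other than Fgf15 past the study's rule. In conventional mice 0 of 8 genes were called with short-chain fructan and 0 of 8 with long-chain fructan, where 0.409 and 0.313% of all genes were, and no member reached an unadjusted p under 0.05. In germ-free mice Fgf15 was the 1 of 8 called with each fructan, where 0.579 and 0.855% of all genes were. Long-chain over short-chain fructan called 0 of 8 in conventional and 0 of 8 in germ-free mice (backgrounds 0.213 and 1.41%). The tests of whether the response differed with colonization called 1 of 8 for short-chain and 0 of 8 for long-chain fructan (backgrounds 0.707 and 0.531%). By limma no gene of the whole array had an adjusted p under 0.05 in any of these 8 comparisons, while between 3.63 and 12.7% had an unadjusted p under 0.05.

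Within groups, some pairs of these genes varied together from mouse to mouse and others did not, with r between -0.58 and 0.76 over all 28 pairs. With each mouse set against its group mean, Fgf15 went with Fabp6 (Pearson r = 0.59 over 24 mice, Spearman rho = 0.54) and with Nr0b2 (r = 0.54, rho = 0.50), and Fabp6 went with Nr0b2 (r = 0.65, rho = 0.53). These had the same sign in both colonization states, at r = 0.65, 0.59 and 0.65 in the 12 germ-free mice and 0.47, 0.67 and 0.76 in the 12 conventional mice. The pairs named were picked from the 28, Nr0b2 was dim in every mouse, and no r was tested. Fgf15 ran against Slc10a2 (r = -0.58) and Nr1h4 (r = -0.57), but this came from the germ-free mice (r = -0.77 and -0.72), with r = 0.05 and 0.01 in conventional mice. Without the 2 mice farthest from their group mean in Fgf15, replicates 1 and 2 of the germ-free mice on water, r was 0.63 with Fabp6, 0.54 with Nr0b2, -0.39 with Slc10a2 and -0.32 with Nr1h4. For Fabp6 with Nr0b2 it was 0.41 without the 2 mice farthest in Fabp6. Slc51a and Slc51b went together at r = 0.45, and Slc10a2 with Nr1h4 at r = 0.76 (0.85 in germ-free and 0.37 in conventional mice, and 0.52 without the 2 mice farthest from their group mean in Slc10a2). These are descriptions: all genes of a mouse share its array and its piece of tissue.

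**Figure D4:**
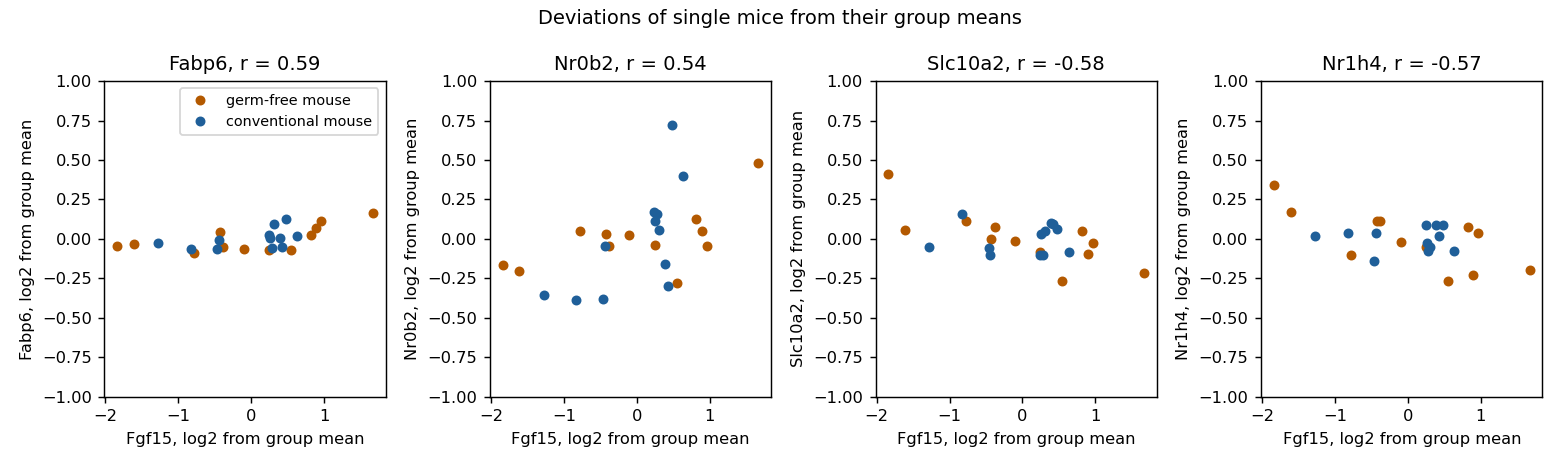
Deviation of each mouse from its group mean for Fgf15 (horizontal axes, log2) against the same for Fabp6, Nr0b2, Slc10a2 and Nr1h4 (vertical axes, log2), germ-free and conventional mice in separate colours. Fabp6 and Nr0b2 rise with Fgf15 (r = 0.59 and 0.54), and the negative relations of Slc10a2 and Nr1h4 (r = -0.58 and -0.57) come from the germ-free mice.

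Outside the 8 genes, the closest patterns by the same measure over 24 mice were Mdh2 (r = 0.80), Slx4 (0.74) and Lpp (0.72) for Fgf15, and Rab9 (0.84), Bst1 (0.79) and Wdtc1 (0.79) for Fabp6. For Slc10a2 they were Fcgr3 (0.80), Prkrip1 (0.79) and Ank3 (0.79), for Slc51a Nme8 (0.79), Zswim8 (0.77) and Cyp4f18 (0.77), and for Slc51b Edf1 (0.76), Hint2 (0.75) and Olfr140 (0.75). For Nr1h4 they were Plekhh1 (0.86), Hnrnpc (0.84) and Specc1l (0.82), for Nr0b2 Kcnk7 (0.68), Gemin8 (0.68) and Lrrc3 (0.64), and for Gpbar1 Rps2 (0.82), Cyth1 (0.81) and Gm9 (0.78). These are the highest of 18813 values for each gene, and no test was made.

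The wider pathway was read from 7 gene lists, for germ-free over conventional mice in the mean of the 3 treatments, where 2.99% of all genes were called higher and 5.22% lower. Of 20 other genes listed under bile acid transport and binding, 3 were called higher and 1 lower (median log2 change 0.06). This list shares Fabp1 with that of the jejunal markers. Fabp1, the liver-type fatty acid binding protein that is more abundant in proximal intestine, was higher by 2.08 on the log2 scale (adjusted p = 2.24e-05 by limma), Abcc2, an apical export pump, by 0.56 (adjusted p = 0.0029), and Slc10a6 by 0.48 (adjusted p = 0.0048). Abcg8, a subunit of the sterol exporter, was lower, with a log2 change of -0.40.

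Of 14 nuclear receptors and cofactors that act with or beside FXR, 2 were called higher and none lower. They were Nr1h3, the oxysterol receptor LXRα (log2 change 0.55), and Ppara, the fatty acid receptor (0.63), and both were also called higher in each of the 3 treatments. The FXR partner Rxra had a log2 change of 0.06 (adjusted p = 0.26). Of 13 further genes known to be induced through FXR or to regulate Fgf15, 1 was called higher, Osgin1 (0.42), and 2 lower, Car12, a carbonic anhydrase (-0.74), and Nos2, the inducible nitric oxide synthase (-2.43). Nos2 averaged 5.94, 6.04 and 6.48 in germ-free mice on short-chain fructan, long-chain fructan and water, and 8.67, 8.48 and 8.60 in conventional mice on the same treatments. The median log2 change over these 13 genes was -0.03.

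**Figure D5:**
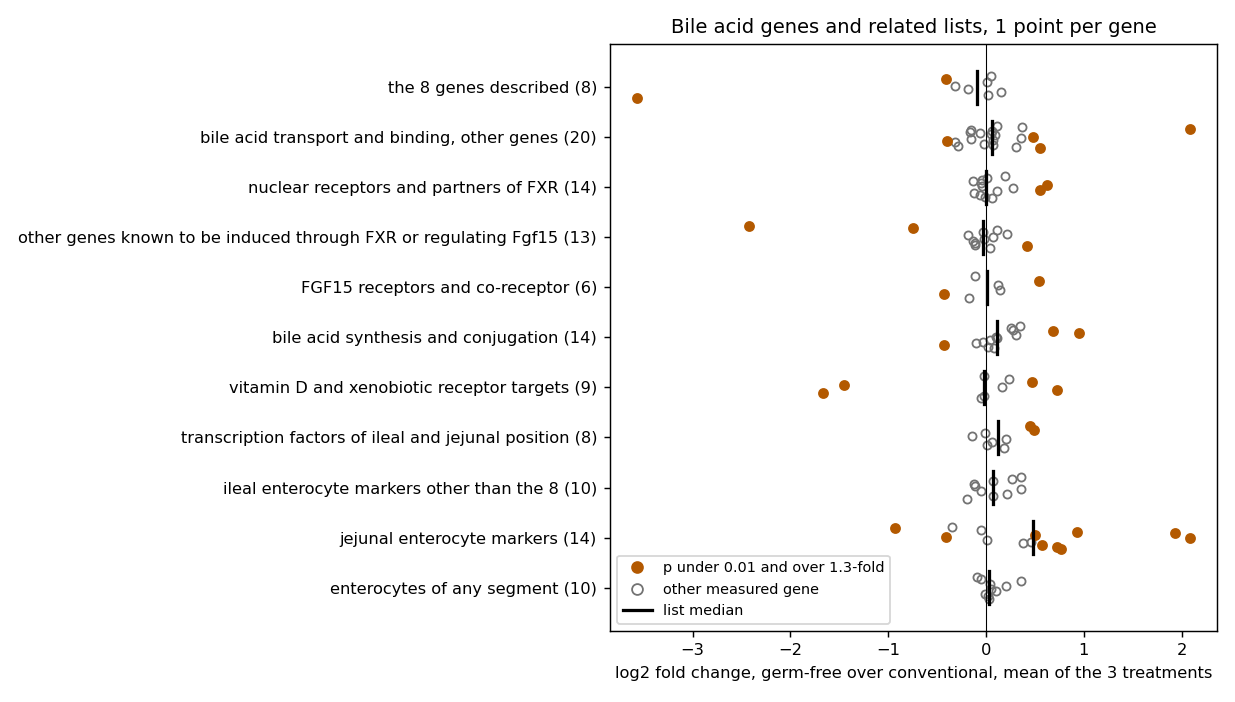
Log2 fold change of germ-free over conventional mice, mean of the 3 treatments (horizontal axis), for the 8 genes, the 7 pathway lists and 3 enterocyte marker lists (rows, number of genes measured in brackets), 1 point per gene, filled where p was under 0.01 and the change over 1.3-fold, with a bar at each median. Fgf15 lies farthest left at -3.57, most other points lie within 0.5 of 0, and the jejunal markers have the median farthest from 0, at 0.48.

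Among 6 genes of FGF receptors and Klotho co-receptors, Klb, which encodes the co-receptor β-Klotho, was called higher (log2 change 0.54) and Fgfr2 lower (-0.43). Fgfr4, the receptor through which FGF15 acts in liver, had a log2 change of 0.12 (adjusted p = 0.25). Of 14 genes of bile acid synthesis and conjugation, 2 were called higher, the peroxisomal enzymes Acox2 (0.95) and Hsd17b4 (0.68), which also act on fatty acids, and 1 lower, the sterol 27-hydroxylase Cyp27a1 (-0.43). Cyp7a1, the rate-limiting enzyme of the liver pathway, had a log2 change of 0.08 (adjusted p = 0.26). Of 9 targets of the vitamin D and xenobiotic receptors, Cyp3a11 (0.73) and Cyp2b10 (0.48) were called higher and S100g, a calcium-binding protein (-1.67), and Cyp3a25 (-1.45) lower. Of 8 transcription factors of ileal and jejunal position, Creb3l3 (0.49) and Hnf4g (0.45) were called higher and none lower.

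With the fructans, none of the 84 genes of these 7 lists had an adjusted p under 0.05 by limma. By the study's rule, short-chain fructan in germ-free mice called 2 of 84 lower than water (2.38%, where 0.579% of all genes were called in either direction), the transcription factors Gata5 and Onecut2 (log2 change -0.41 each). Long-chain fructan called 3 of 84 lower (3.57%, against 0.855% of all genes), Abcg8 (-0.41), Ppara (-0.39) and Cyp3a13 (-0.47). In conventional mice short-chain fructan called 2 of 84 higher (2.38%, against 0.409% of all genes), Slc10a4 (0.53) and Rxrg (0.42), and long-chain fructan none. Of 13 circadian clock genes, a list added after values had been seen, none was called in any colonization or fructan comparison, and their median log2 change between germ-free and conventional mice was 0.05.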

How the data were processed

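The deposited table holds log2 expression values, 1 column per mouse, which the authors made by robust multi-array averaging (RMA) of Affymetrix Mouse Gene 1.1 ST arrays. RMA corrects background, equalises the distribution of values between arrays and summarises the probes of a set, so an array's overall level cannot be compared. The authors' methods name probe sets regrouped by gene, whereas the deposited row names match the array maker's probe sets, and the platform annotation of these was used. Of 35556 probe sets, 21219 had 1 gene symbol, 1880 several and 12457 none, and a gene with several probe sets was represented by the one with the highest mean, which left 18821 genes. No column fell outside the 24 mice.

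All 24 arrays were fitted with 6 group means in limma 3.58.1 (R 4.3.3), with empirical Bayes moderation and an intensity trend, and p-values were adjusted by Benjamini-Hochberg over all genes within each of 12 comparisons. They were germ-free against conventional mice per treatment and in the mean of 3, each fructan against water, long-chain against short-chain fructan, and the differences between those responses. Exact permutation tests over mice were added for single genes. The test was checked on simulated data with normal noise of 1 spread per gene in all 6 groups. It called 91% of 67 genes changed 1.5-fold and 54 of 18621 unchanged genes. That check cannot cover genes whose spread differs between groups. The limma p-values and intervals rest on 1 spread between mice per gene, pooled over the 6 groups and moderated. They do not use the spread of the compared groups alone. For Fgf15 the SE was 0.56 in every comparison of group with group, while group SDs ran from 0.52 (conventional water) to 1.49 (germ-free water). Its limma results against germ-free water can therefore understate the spread of those mice. The number of arrays limits the precision.

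The members and gene lists were chosen with earlier results of these data known. Named genes were the 8 members, the called genes of each pathway list (up to 4 with the smallest p), and for each member the 3 other genes with the highest correlation of deviations from group means. Other genes named without a call (Rxra, Fgfr4, Cyp7a1) were added for their role after values had been seen. The 7 pathway lists and 16 cell type lists were used. Alternatives were 1 prior for all genes, the study's intensity-based moderated test, smaller fits of 12 or 8 arrays, cyclic loess, leaving out dim genes, other handling of probe sets, array weights, a replicate block and each mouse left out in turn.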

Additional observations from a re-analysis of the deposited data

Results flagged for a closer look

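In 3 of 48 groups of 4 mice 1 mouse stood apart from the rest, where chance, which marks about 1 in 20 groups, gives about 2.4. Fgf15 in replicate 4 of the conventional short-chain mice was 8.73, with the other three at 9.80 to 9.86. Fabp6 in replicate 1 of the germ-free mice on water was 12.80, with the others at 12.57 to 12.59. This mouse also had the highest Fgf15, Nr0b2 and mean of ileal markers of the 12 germ-free mice. Gpbar1 in replicate 1 of the germ-free short-chain mice was 4.99, with the others at 5.24 to 5.27.

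The response of Fgf15 to short-chain fructan differed between germ-free and conventional mice by -2.93 on the log2 scale (limma, adjusted p = 0.90), past the study's rule but not the adjusted threshold. It was the lowest log2 difference of all 18821 genes in this comparison and ranked 14 by the smallest limma p. For the long-chain response, which was not called, the log2 difference of Fgf15 was also the lowest, and it ranked 552 by p. Fgf15 was called by the study's rule in all 16 fits that left out 1 mouse, at -3.54 to -2.37. The difference was -3.54 without replicate 2 and -2.37 without replicate 1 of the germ-free mice on water.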

How the results depend on the processing

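Of 1900 member values recomputed under the alternatives, 1891 stayed on the same side of the study's rule, 5 lost a call and 4 gained one. None reversed a call, and 82 values that were called in neither fit changed sign, the largest of them a log2 change of 0.26 in size. Between germ-free and conventional mice after long-chain fructan, 2 of the 8 genes were called instead of 1 when only the 8 arrays of these groups were fitted, and 2 with cyclic loess, where Nr0b2 joined Fgf15. In the mean of the 3 treatments, 1 was called instead of 2 with array weights and 1 when dim genes were left out, since Nr0b2 is then not among the 7 members tested. Leaving out each mouse in turn, the count ran from 0 to 1 on water, where it was 0 without replicate 2 of the germ-free water mice, from 1 to 2 after long-chain fructan, with 2 without replicate 1 of the conventional long-chain mice, and from 1 to 2 in the mean of the 3, with 1 without replicate 2 of the conventional long-chain mice or replicate 4 of the conventional water mice. It ran from 0 to 1 for long-chain fructan against water in germ-free mice, with 0 without replicate 1 of the water mice, and from 0 to 1 for the difference in the long-chain response, where Fgf15 was called at -2.34 without replicate 2 of the germ-free water mice. Apart from the dim gene setting, the cause was not tested.

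The replicate numbers did not pair the mice: same-numbered mice of 2 groups had correlated deviations of -0.14 to 0.18, and in no pair of groups were all 4 over 0.1. With a replicate block the count of called members was unchanged in all 12 comparisons, at 1 on water, 2 after short-chain fructan and 1 after long-chain fructan for germ-free against conventional mice, and Fgf15 in germ-free mice after short-chain fructan against water had an adjusted p of 0.31.

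Leaving out dim genes left 10746 genes and lowered the counts of called genes over the whole array: with short-chain and long-chain fructan against water from 109 to 49 and from 161 to 66 in germ-free mice and from 77 to 30 and from 59 to 20 in conventional mice, with long-chain against short-chain fructan from 265 to 101 and from 40 to 14 in the same mice, and in the differences between responses from 133 to 55 and from 100 to 27. Long-chain fructan against water in germ-free mice gave 97 with only the 8 arrays. Leaving out 1 mouse in turn gave 61 to 263 and 116 to 287 for short-chain and long-chain fructan in germ-free mice, the lowest and highest being without replicate 3 of the short-chain and of the water mice for the first, and without replicate 1 of the water and of the long-chain mice for the second. In conventional mice these ranges were 65 to 123 and 64 to 119, for long-chain against short-chain fructan 184 to 455 in germ-free and 50 to 92 in conventional mice, and for the differences between responses 107 to 215 and 73 to 147. Up to 9 genes then had an adjusted p under 0.05 in a fructan comparison. With 4 mice a group, small changes of Fgf15, the member with the widest spread, could not be seen, and Nr0b2 lay under the median of every array.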
